A study of Mus musculus with 6 samples.

Results

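The genes described here are 10 immediate early factors, Fos, Fosb, Jun, Junb, Jund, Egr1, Egr2, Egr3, Atf3 and Ier2, in refed mouse liver with and without the receptor gene Gpr146. They were taken by symbol, using a probe set that carries that symbol alone and, for a gene with several, the brightest on average. All 10 had such a probe set among the 22180 named genes, and all 10 lay above the filter on signal, among the 11090 genes that were tested. The livers came from 3 mice with a whole-body knockout of Gpr146 (KO) and from 3 wild-type littermates (WT), all of them male, aged 24 weeks, fed chow and bred on a C57BL/6J background. Every mouse of both genotypes had been fasted for 16 hours and then refed for 6 hours, so the knockout was compared with WT in the refed state only. The knockout removes the receptor in every tissue, so liver cells were not the only ones that lacked it. RNA of each liver was hybridised to 1 array, and values are the authors' deposited log2 signals, on which a step of 1 is a doubling of signal.

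Immediate early genes are switched on within minutes of a stimulus, from transcription factors that the resting cell already holds, and their mRNAs are short-lived. The Fos and Jun proteins pair through leucine zippers to form AP-1, which binds DNA at TPA response elements. The EGR proteins are zinc-finger factors that bind GC-rich sites. In liver, members of both families are known to be induced by growth factors, by partial hepatectomy and by stress, largely through ERK and the other MAP kinases. Gpr146 is a G protein-coupled receptor that has been described in mouse hepatocytes as acting through ERK on cholesterol synthesis, and the comparison of KO with WT asks what changes in the refed liver without it.

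The start regions of these genes are shown because the genes moved together across the mice. RefSeq promoter windows on GRCm38.p6 were matched by symbol for 7 of the 10, and the 150 bases ahead of the annotated start were searched on both strands. Capitals mark matches to TGACG, the core of the cyclic AMP response element (CRE), to TATAAA, the TATA box, to GGAAGT, an ETS core, to GCGNGGGCG, an EGR site, to TGANTCA, an AP-1 site, and to the CArG box bound by serum response factor. No 2 of these matches overlapped in the windows shown. The windows lie at chr12:85473740-85473889 on the plus strand for Fos, chr7:19310046-19310195 on the minus strand for Fosb, chr8:84978749-84978898 on the minus strand for Junb, chr10:67537719-67537868 on the plus strand for Egr2 and chr1:191183334-191183483 on the minus strand for Atf3.
Fos: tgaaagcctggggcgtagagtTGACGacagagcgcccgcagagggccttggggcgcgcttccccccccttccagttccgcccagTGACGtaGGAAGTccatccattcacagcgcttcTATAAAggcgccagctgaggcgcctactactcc
Fosb: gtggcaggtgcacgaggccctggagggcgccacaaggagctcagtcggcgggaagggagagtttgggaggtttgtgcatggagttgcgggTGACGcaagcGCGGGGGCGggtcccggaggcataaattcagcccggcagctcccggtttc
Junb: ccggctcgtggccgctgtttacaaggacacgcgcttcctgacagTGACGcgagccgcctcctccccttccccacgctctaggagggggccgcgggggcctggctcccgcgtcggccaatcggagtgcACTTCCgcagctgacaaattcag
Egr2: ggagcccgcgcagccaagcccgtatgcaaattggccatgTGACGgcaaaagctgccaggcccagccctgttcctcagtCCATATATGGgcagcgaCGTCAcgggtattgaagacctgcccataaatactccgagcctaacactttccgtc
Atf3: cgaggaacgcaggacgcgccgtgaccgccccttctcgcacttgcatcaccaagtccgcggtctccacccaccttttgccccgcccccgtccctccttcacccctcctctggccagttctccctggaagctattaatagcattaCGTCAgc

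The CRE core was present in at least 1 window of 5 of the 7 genes, Fos, Fosb, Junb, Egr2 and Atf3. It was present in 13.3% of all 32851 windows of the same length, a share by window and not by gene. Egr2 has 5 annotated windows, several of them overlapping, and 3 of these held the CRE core. A CArG box lay in 4 of the Egr2 windows and in 0.92% of all windows. The 3 Egr2 windows with the CRE core overlap and share a single CArG box. An ETS core was found for Fos and Junb (13.6% of all windows), a TATA box for Fos (7.57%) and an EGR site for Fosb (3.81%). The AP-1 site was in none of the 7 (4.24% of all windows). The windows of Jun and Jund held no exact match to any of the 6 motifs. Variants, such as the TGACATCA in the Jun window, were not searched for. In the reference annotation the 10 genes are also short, with a median span of 3.57 kb against 21.7 kb for the genes tested, and Junb, Jund and Ier2 share chromosome 8.

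The arrays were alike overall. Their medians lay between 2.67 and 2.73, any 2 of them correlated at 0.983 to 0.988 over 41345 probe sets, and no 2 columns were identical. Gpr146 itself measured 4.61, 4.28 and 3.87 in KO mice 1 to 3 and 5.96, 5.56 and 5.65 in WT mice 1 to 3. The genotypes did not overlap, and WT mouse 3, which stands apart below, had a Gpr146 signal like those of the other WT mice. The Gpr146 difference was -1.47 ± 0.19 (SE), with limma's adjusted p at 0.0702. No source used here gives the deleted part of the gene. Alb, the main plasma protein gene of hepatocytes, was between 11.90 and 11.93 in KO livers and between 11.90 and 11.95 in WT livers. These values lie near the array maxima of 12.1 to 12.2, which limits the differences that Alb can show.

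All 10 immediate early factors had a lower mean signal in KO than in WT livers, as 42.3% of genes tested did, but the WT livers were split. WT mice 1 and 2 lay above the other 4 mice in all 10 genes, while WT mouse 3 lay inside the range of the KO mice in 8 and just above it in Egr2 and Egr3. Over the 11090 genes tested, WT mice 1 and 2 both lay above the other 4 mice in 6.65%, and WT mouse 3 lay inside the KO range in 46.4%. Fosb and Egr2 passed the signal filter through the WT mice, which limits the comparison with 6.65% for them. The differences (KO minus WT) ran from -3.40 for Egr1 to -0.46 for Jund, with a median of -1.73 against 0.03 over all genes tested. With all 6 mice 0 of the 10 passed limma's adjusted p of 0.05, where 0.0361% of all genes tested did (4 genes), so none is called changed. All 10 had an unadjusted p under 0.05, as 2.98% of genes tested did on the lower side, but only 2, Egr3 and Jund, kept it with limma's trend and robust options and only Egr2 did so without WT mouse 1 or without WT mouse 2. KO and WT did not overlap in 2 of the 10, Egr2 and Egr3, against 5.16% of genes tested on the lower side. In whole liver RNA, fewer cells expressing a gene and less of its RNA per cell cannot be told apart.

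**Figure D1:**
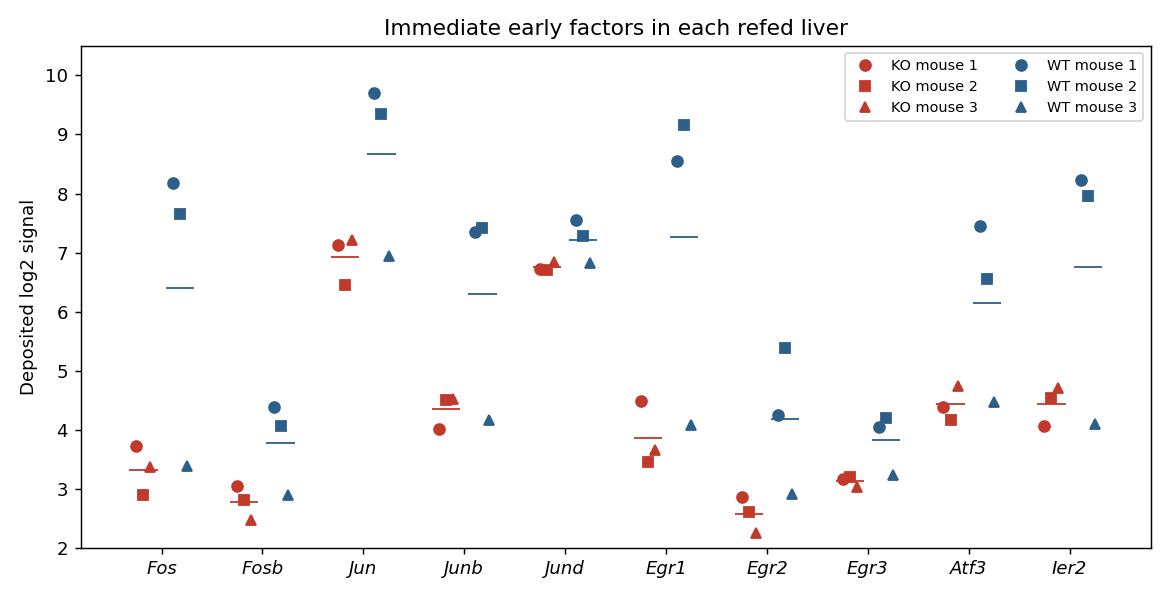
Deposited log2 signal of each of the 10 genes in each liver, KO in red at the left of each gene and WT in blue at the right, with 1 symbol per mouse number and a bar at the mean of 3 mice. WT mice 1 and 2 stand above the other 4 mice in every gene shown, and WT mouse 3 lies among or just above the KO mice.

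Fos encodes the partner of Jun in the classical AP-1 dimer. It measured 3.72, 2.90 and 3.36 in KO mice 1 to 3, against 8.17, 7.64 and 3.38 in WT mice 1 to 3. The KO mice were all low, WT mice 1 and 2 were high, and WT mouse 3 sat between KO mice 1 and 3. Its difference was -3.07 ± 1.05 (SE; limma adjusted p = 0.435). Within WT, Fos was 4.796 log2 units higher in mouse 1 and 4.27 higher in mouse 2 than in mouse 3. The low Fos values lay near the filter of 2.99, where array background compresses differences, so they are not given as linear folds. Fosb, a close relative of Fos best known from neurons, was at 3.05, 2.81 and 2.46 in KO mice and at 4.38, 4.07 and 2.89 in WT mice. WT mice 1 and 2 were again the high ones and WT mouse 3 lay between KO mice 1 and 2, over a narrower span than in Fos. Fosb differed by -1.01 ± 0.34 (limma adjusted p = 0.431), and its signal was also near that filter.

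The 3 Jun genes supply the other side of the dimer. Jun itself, which is required for liver regeneration in mice, measured 7.13, 6.45 and 7.22 in KO mice 1 to 3, against 9.70, 9.35 and 6.95 in WT mice 1 to 3. WT mouse 3 was lower than 2 of the KO mice. Jun differed by -1.73 ± 0.62 (SE; limma adjusted p = 0.442). Junb, which can counter Jun at shared promoters, was at 4.01, 4.50 and 4.52 in KO mice and at 7.34, 7.41 and 4.16 in WT mice. WT mice 1 and 2 were nearly equal and 9.08-fold and 9.51-fold above WT mouse 3, which lay below 2 of the KO mice. The difference was -1.96 ± 0.74 (adjusted p = 0.483). Jund, the Jun gene with the most constant expression in many tissues, stood at 6.73, 6.71 and 6.84 in KO mice against 7.55, 7.27 and 6.82 in WT mice. The pattern of the mice held, but the difference was only -0.46 ± 0.17 (adjusted p = 0.472). Jund was the 1 gene of the 10 with a second probe set, which read 4.48, 4.40 and 4.37 in KO mice and 4.69, 4.92 and 4.64 in WT mice. There every KO mouse was below every WT mouse, by -0.33 on average, and WT mouse 3 was close to WT mouse 1, so the 2 probe sets of Jund disagree on where WT mouse 3 lies.

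Among the EGR genes, Egr1 had the widest difference of the 10. It encodes a zinc-finger factor that responds to growth factors and ERK activity in many cell types. Egr1 measured 4.48, 3.46 and 3.65 in KO mice 1 to 3, against 8.55, 9.16 and 4.08 in WT mice 1 to 3. WT mouse 3 lay below KO mouse 1. The difference was -3.40 ± 1.11 (SE; limma adjusted p = 0.416), while WT mouse 2 was 5.07 log2 units above WT mouse 3. Egr2, known as Krox20 and needed for myelination by Schwann cells, was at 2.86, 2.60 and 2.24 in KO mice and at 4.26, 5.39 and 2.91 in WT mice. Here the genotypes did not overlap, although WT mouse 3 exceeded KO mouse 1 by little, and the exact permutation p was 0.1, the smallest that 3 against 3 allows. The difference was -1.62 ± 0.51 (limma adjusted p = 0.400). Egr3, needed for muscle spindles, was at 3.17, 3.19 and 3.03 in KO mice and at 4.04, 4.19 and 3.23 in WT mice. Again no KO mouse reached a WT mouse, and the difference of -0.69 ± 0.22 did not pass (limma adjusted p = 0.416, exact permutation p = 0.1). For the rest of the 10 the exact permutation p was 0.2 in Fos, Fosb, Jund, Egr1 and Atf3, and 0.3 in Jun, Junb and Ier2. The KO means of Egr2 and of Fosb lay under the filter of 2.99, so both passed it through the WT mice.

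Atf3 encodes a stress-induced leucine zipper protein of the ATF and CREB family that can pair with Jun proteins. It was at 4.39, 4.16 and 4.74 in KO mice 1 to 3 and at 7.44, 6.55 and 4.46 in WT mice 1 to 3. WT mouse 1 was the highest here, and WT mouse 3 lay between KO mice 1 and 3. The difference was -1.72 ± 0.62 (SE; limma adjusted p = 0.448). Ier2, a short nuclear protein induced by serum, was at 4.06, 4.53 and 4.71 in KO mice against 8.23, 7.96 and 4.09 in WT mice. WT mouse 3 was lower than 2 of the KO mice, 0.34 under the KO mean, while WT mouse 1 was 17.7-fold above WT mouse 3. Ier2 differed by -2.33 ± 0.93 (limma adjusted p = 0.509). Between the 2 high mice there was no fixed order: WT mouse 1 exceeded WT mouse 2 in 6 of the 10 genes and was lower in the other 4, which are Junb and the 3 EGR genes.

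These genes were more variable among the WT livers than among the KO livers. The median SD of the 10 was 0.30 among KO livers and 1.51 among WT livers, against 0.12 among KO and 0.13 among WT livers over all genes tested. All 10 had a wider spread in WT than in KO livers, as 53.4% of genes tested did. In 7 of the 10 the WT SD was above 1, which held for 39 of the 11090 genes, or 0.352%. Egr2, among the 7, passed the signal filter through the WT mice. Among KO livers alone, the lowest value of a gene was in mouse 2 for 5 genes, in mouse 3 for 3 and in mouse 1 for 2.

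**Figure D2:**
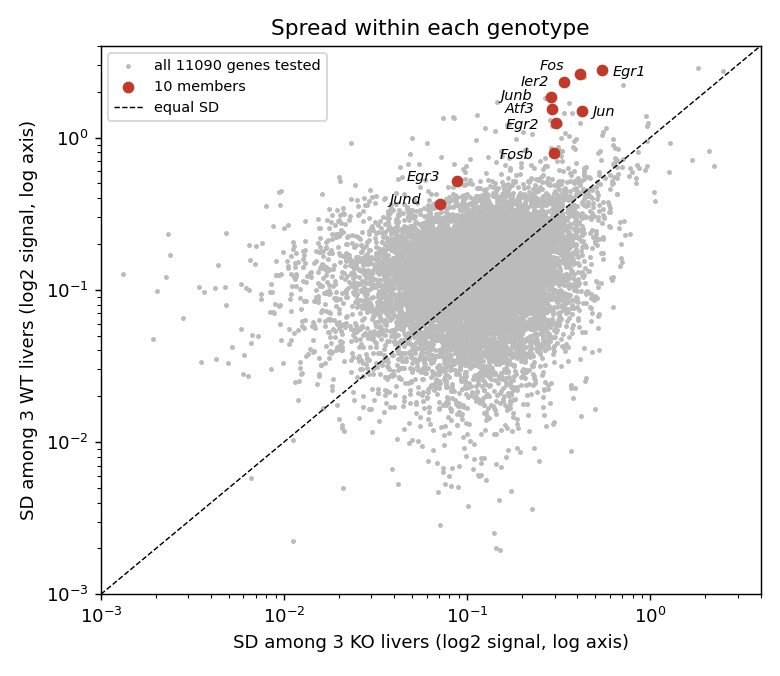
SD among the 3 KO livers (horizontal) against SD among the 3 WT livers (vertical) for each gene tested, both in log2 signal on log axes, with the 10 genes in red and the dashed line at equal SD; 1 gene with an SD under 0.001 is outside the axes. All 10 lie above the line, and Egr1, Fos and Ier2 have WT SDs of 2.77, 2.63 and 2.32.

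WT mouse 3 decided whether these genes passed. Without it 9 of the 10 fell in KO at a limma adjusted p under 0.05, against 0.361% of all genes on the lower side (40 genes). Apart from Fosb and Egr2, which passed the signal filter through the WT mice, it was 7 of 8. With no filter, over 22180 genes, it was 9 of 10, but the share of all genes passing in that fit was not counted. Fos then differed by -4.59 ± 0.24 (SE; adjusted p = 0.000121), Egr1 by -4.99 ± 0.30 (0.000225), Ier2 by -3.67 ± 0.19 (0.000121) and Junb by -3.03 ± 0.17 (0.00013). Jun was at -2.59 and Atf3 at -2.57, with adjusted p-values of 0.00291 and 0.00513. Egr2, Fosb and Egr3 were at -2.25, -1.45 and -0.99, with adjusted p-values from 0.00953 to 0.0213. Jund, at -0.65 ± 0.12, did not pass (adjusted p = 0.102). That fit keeps 2 WT mice, and no label gives a reason to leave WT mouse 3 out. WT mouse 3 stands out by its low values in these genes. The adjusted p-values without it, here and below, are therefore no independent support for a difference. With any other mouse left out 0 of the 10 passed. The median difference was then -1.33 without WT mouse 1 and -1.40 without WT mouse 2, and between -1.88 and -1.61 with a KO mouse left out. It was -2.58 without WT mouse 3. Without WT mouse 1 or 2, some single genes moved by more than 1.5 times: Jund was at -0.29 and Atf3 at -1.08 without WT mouse 1, and Egr2 was at -1.02 without WT mouse 2. With a pseudocount of 16 on the linear scale, which damps weak signals, Fosb was at -0.41, Egr2 at -0.72 and Egr3 at -0.30.

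**Figure D3:**
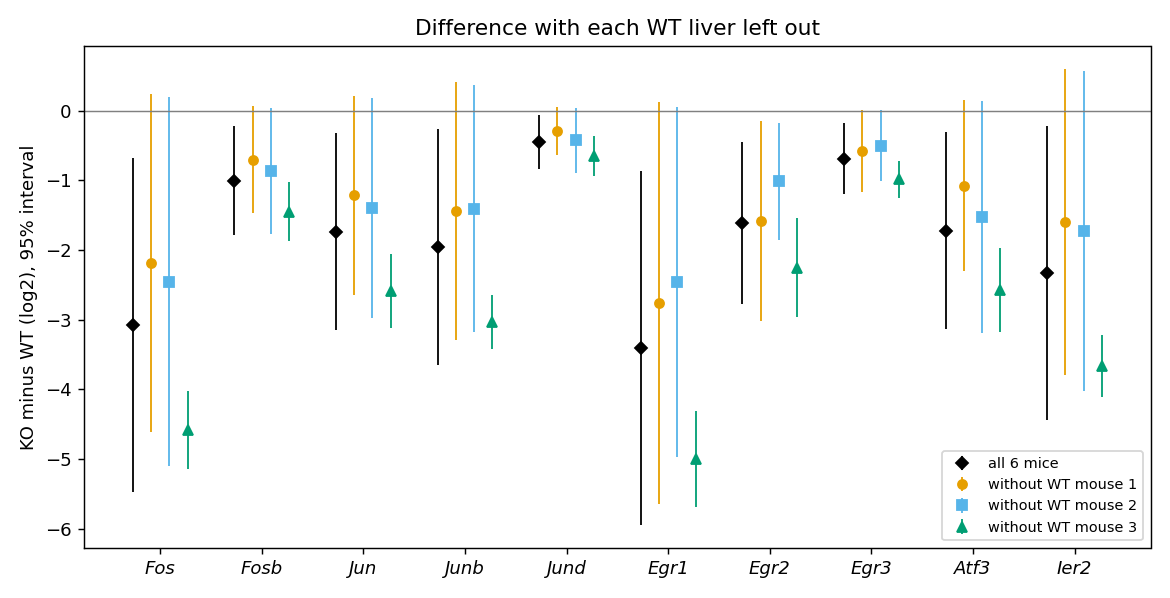
KO minus WT difference of each gene in log2 signal, with limma's 95% interval, for all 6 mice and with each WT mouse left out in turn; the grey line marks 0. All point estimates are below 0, and without WT mouse 3 the SEs lie between 0.11 and 0.31 and every interval is below 0.

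The other genes of these families had median differences near 0. Of 16 further AP-1 and related leucine zipper genes, 10 were tested and 0 passed limma's adjusted threshold. Their median difference was -0.02, with 5 on each side of 0. In limma 3 had an unadjusted p under 0.05, 1 lower and 2 higher. Over all genes tested 2.98% were lower at that p, and the share on the higher side was not counted. WT mice 1 and 2 lay above the other 4 mice in 3 of the 10, against 6.65% of all genes tested. Maff, a small Maf factor, was at 3.11, 3.16 and 2.83 in KO mice 1 to 3 and at 3.78, 3.90 and 3.31 in WT mice 1 to 3 (adjusted p = 0.343). No KO mouse reached a WT mouse, and WT mouse 3 was the lowest WT mouse. Atf5 and Atf7, both of the ATF family, were on the other side at 0.44 and 0.35 (adjusted p = 0.336 and 0.404). The 6 EGR partners and regulators had a median of -0.09, with 0 past limma's adjusted threshold and 0 at an unadjusted p under 0.05. WT mice 1 and 2 lay above the other 4 mice in 0 of the 6. The genes of smallest p there were Wt1, a zinc-finger factor that binds EGR-like sites, at -0.25, the EGR corepressor Nab1 at -0.13 and Egr4 at -0.15.

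Factors that act upstream of immediate early genes also had medians near 0. The 13 SRF, ETS and CREB genes had a median of 0.08, with 8 positive and 5 negative. In limma 0 passed the adjusted threshold, and 2 lower and 2 higher had an unadjusted p under 0.05. Over all genes tested 2.98% were lower at that p, and the share on the higher side was not counted. WT mice 1 and 2 lay above the other 4 mice in 2 of the 13, against 6.65% of all genes tested. Srf, the factor that binds CArG boxes and is itself inducible, was at 4.46, 4.63 and 4.87 in KO mice 1 to 3 and at 5.28, 5.53 and 4.81 in WT mice 1 to 3. It had the same arrangement as the 10 genes, with WT mouse 3 among the KO mice, at a difference of -0.55 ± 0.18 (SE; adjusted p = 0.423). Mrtfa, a cofactor of Srf, and Creb1, which binds CREs, were at 0.37 and 0.36 (adjusted p = 0.423 and 0.437). Of 14 upstream kinases 9 were tested, with a median of -0.05, 0 past limma's adjusted threshold and 1 at an unadjusted p under 0.05. That 1 was lower, as 2.98% of all genes tested were at that p. WT mice 1 and 2 lay above the other 4 mice in 0 of these 9. Map2k4, which activates JNK, was at -0.29, Mapkapk2 at -0.20 and the p38 kinase Mapk14 at 0.17. These are mRNA levels and do not measure kinase activity.

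Other immediate early genes showed the arrangement in part. Of 36 listed, 33 were tested, 27 of them with a negative difference (42.3% of all genes tested), and the median was -0.24. With all 6 mice 0 passed limma's adjusted threshold, and 13 had an unadjusted p under 0.05, 12 lower and 1 higher. Over all genes tested 2.98% were lower at that p. With 1 mouse left out the number of the 33 at that p ran from 6, without WT mouse 2 or KO mouse 2, to 18, without WT mouse 3. WT mice 1 and 2 lay above the other 4 mice in 17 of the 33, against 6.65% of all genes tested. Plk3, a polo-like kinase, was at 5.91, 5.79 and 5.92 in KO mice 1 to 3 against 8.36, 9.19 and 6.54 in WT mice 1 to 3 (difference -2.16 ± 0.54, adjusted p = 0.321). Here WT mouse 3 was above every KO mouse but far under the other WT mice. Sgk1, a kinase induced by serum and glucocorticoids, was at -0.54 (adjusted p = 0.306), and Ier3 at -0.39 (0.308). Ier3 did not share the split, at 3.14, 3.07 and 2.99 in KO mice and 3.37, 3.50 and 3.51 in WT mice. Without WT mouse 3, 8 of the 33 fell at a limma adjusted p under 0.05, against 0.361% of all genes tested. They were Btg2, Ccn1, Gadd45g, Nfkbiz, Plk3, Sgk1, Trib1 and Zfp36. Without any other single mouse 0 of the 33 passed.

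Of 14 NR4A, DUSP and Sprouty-type genes, which are induced by or feed back on the same signals, 12 were tested. The difference was negative in 11, as in 42.3% of all genes tested. With all 6 mice 0 passed limma's adjusted threshold, and 5 had an unadjusted p under 0.05, all lower, against 2.98% of all genes tested. WT mice 1 and 2 lay above the other 4 mice in 6 of the 12, against 6.65% of all genes tested. Dusp10 had the smallest p there, at 4.14, 4.04 and 4.03 in KO mice 1 to 3 and 4.48, 4.48 and 4.45 in WT mice 1 to 3. Its difference was -0.40 (limma adjusted p = 0.277), and it did not share the split, since WT mouse 3 lay close to the other WT mice. Nr4a1, an orphan nuclear receptor, was at 3.80, 3.75 and 3.52 in KO mice 1 to 3 against 7.36, 6.79 and 4.17 in WT mice 1 to 3. It fell without WT mouse 3 (limma adjusted p = 0.000121), as did Dusp6 (0.0149). Of 20 known AP-1 or EGR targets 9 were tested, 0 passed limma's adjusted threshold and the median was 0.04. In limma 1 had an unadjusted p under 0.05, on the lower side, against 2.98% of all genes tested. WT mice 1 and 2 lay above the other 4 mice in 1 of the 9, against 6.65% of all genes tested. Hmox1, heme oxygenase, was at -0.38 (limma adjusted p = 0.437), Vegfa, the endothelial growth factor, at 0.26 (0.564) and the metallothionein Mt2 at -0.47 (0.647).

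**Figure D4:**
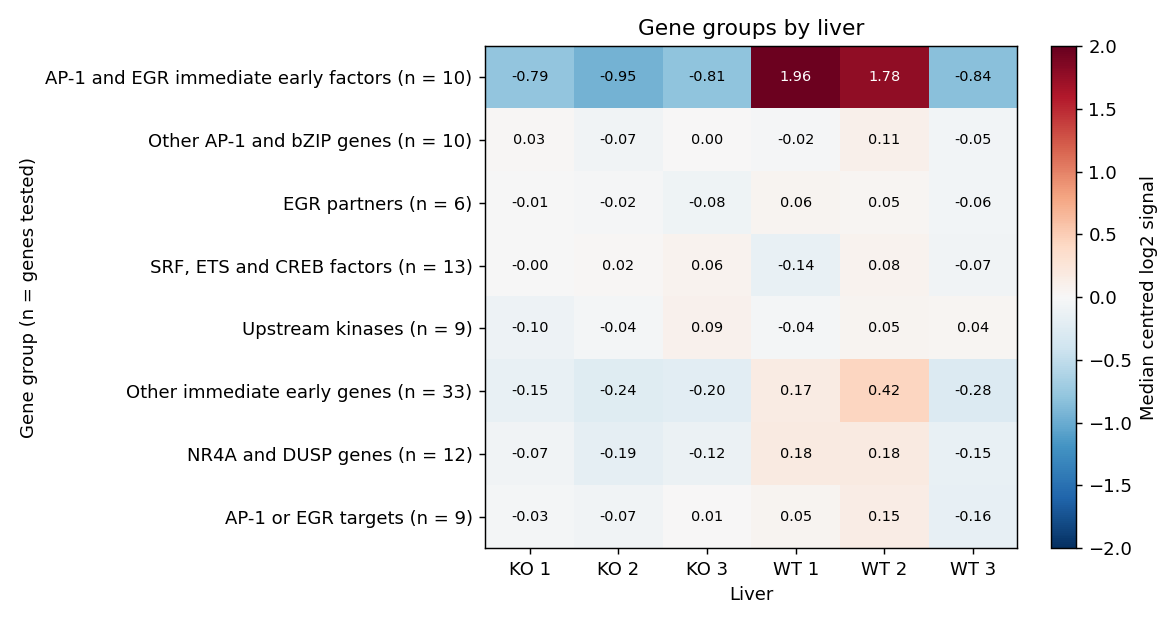
Median over each gene group of the log2 signal centred on the gene's mean over 6 livers, 1 column per liver and 1 row per group, with red above and blue below the mean. The 10 genes are at -0.95 to -0.79 in KO mice, against 1.96 and 1.78 in WT mice 1 and 2 and -0.84 in WT mouse 3.

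The genes closest to the 10 were found by the root mean square distance of their centred log2 profile over the 6 mice from the mean profile of the 10. That mean profile was -0.80, -1.02 and -0.88 in KO mice 1 to 3 and 1.81, 1.74 and -0.86 in WT mice 1 to 3. Mir1938, a microRNA gene, was nearest at a distance of 0.14 log2 units, where the median of all other genes was 1.28. It measured 4.31, 4.13 and 4.34 in KO mice and 6.64, 6.61 and 4.20 in WT mice. In the reference it lies inside Ifrd1, an immediate early gene also called TIS7, so RNA of the 2 genes cannot be told apart there and the value is not one of the mature microRNA. Ifrd1 had its own probe set, at 5.001, 5.244 and 5.287 in KO mice and 6.31, 6.13 and 5.50 in WT mice. The mature sequence is printed to identify the gene, with its seed, bases 2 to 8, in capitals (RefSeq, GRCm38.p6, chr12:40222782-40222803, minus strand).
mmu-miR-1938: cGGUGGGAcuuguaguucgguc

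Next came Plk3 at 0.35, then Ccn1, a matricellular protein, at 0.37 and Nr4a1 at 0.37, and Ubald1 and Btbd19 at 0.41 each. Ubald1 was at 3.34, 3.70 and 3.99 in KO mice 1 to 3 and 5.47, 5.81 and 3.53 in WT mice 1 to 3, and Btbd19 at 3.17, 3.15 and 3.44 in KO mice and 4.87, 5.54 and 3.19 in WT mice. Of the 10 themselves, Jun was nearest to their mean at 0.21 and Egr1 farthest at 1.12, since a wide or narrow span adds to this distance as much as a different order of mice.

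**Figure D5:**
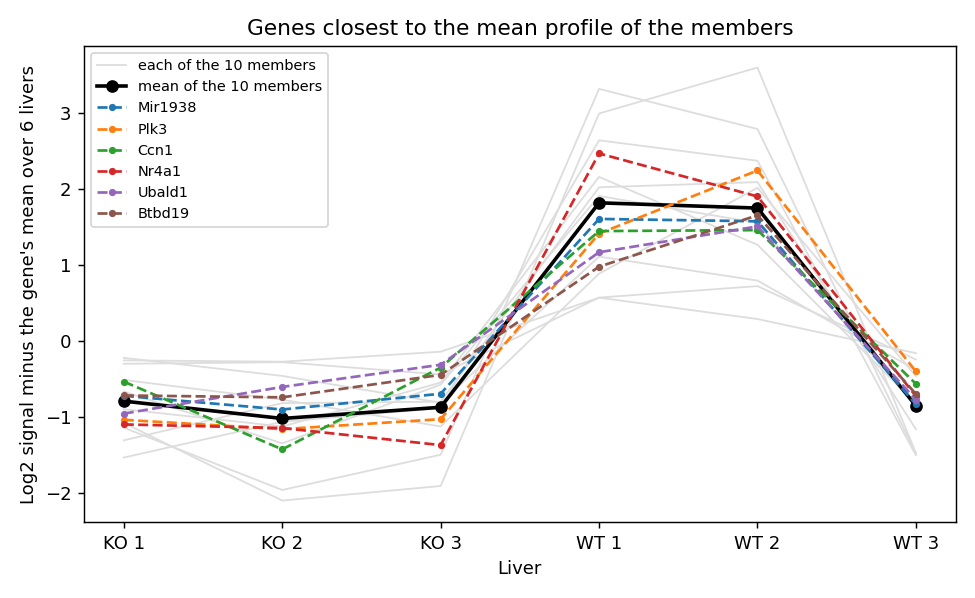
Log2 signal minus the gene's own mean over the 6 livers, by liver, for the mean of the 10 genes (black), each of the 10 (grey) and the 6 other genes of smallest distance from that mean (dashed). The curves are high in WT mice 1 and 2 and low in the other 4 livers.

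The split was rare among the genes tested. WT mice 1 and 2 both exceeded the other 4 mice by at least 1 log2 unit in 22 of the 11090 genes, or 0.198%, and 8 of the 22 are among the 10 described here, all but Jund and Egr3. The other 14, named after their values were seen, were Btg2, Nr4a1, Mir1938, Plk3, Ccn1, Ubald1, Btbd19, Gadd45g, Zfp36, Dnajb1, Trib1, Cish, Fbf1 and Cxcl1. Btg2, an antiproliferative gene, had the widest gap of these, 3.91 log2 units, at 4.77, 3.90 and 4.28 in KO mice 1 to 3 and 8.72, 8.68 and 4.34 in WT mice 1 to 3. Dnajb1, a cochaperone of the heat shock response, was at 5.45, 5.72 and 5.87 in KO mice against 7.70, 7.98 and 6.40 in WT mice, and Cxcl1, a neutrophil chemokine, at 4.27, 4.59 and 4.71 in KO mice against 6.50, 5.80 and 4.43 in WT mice. Cish, a feedback gene of STAT5 signalling, was at 2.86, 2.80 and 3.07 in KO mice and 4.44, 5.45 and 3.26 in WT mice. The KO mean of Cish (2.91) lay under the filter on signal, as did those of Fosb (2.78) and Egr2 (2.57). Cish, Fosb and Egr2 therefore passed the filter through the WT mice, whose high values are what was counted. Their place among the 22 is not independent of the filter.

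Markers of other liver cells were set beside these genes. Summed on the linear scale, the 8 Kupffer cell markers ranged from 391 to 599 over KO mice and from 361 to 617 over WT mice, and the 7 sinusoidal endothelial markers from 440 to 492 over KO mice and from 433 to 529 over WT mice. The 7 stellate cell markers summed to 396 to 476 in KO mice and 394 to 514 in WT mice, and 7 hepatocyte markers to 17021 to 17269 in KO mice and 16963 to 17421 in WT mice. Among the hepatocyte markers Alb and Ahsg lay near the array maxima of 12.1 to 12.2, which limits the differences that their sum can show. The 7 neutrophil and monocyte markers summed to 133 to 170 in KO mice and 123 to 177 in WT mice, and all of them but Lyz2 were under the filter. Bile duct markers, 4 of 5 with a probe set, summed to 81.5 to 96.2 in KO mice and 63.5 to 80.3 in WT mice, without overlap. Sox9 was the brightest of these and did not overlap, at 6.19, 6.12 and 5.85 in KO mice 1 to 3 and 5.38, 5.80 and 5.74 in WT mice 1 to 3. Krt7 did overlap, at 3.52, 3.20 and 3.61 in KO mice and 3.20, 3.49 and 3.18 in WT mice. Krt19 and Epcam were under the filter. In these 6 lists 0 tested members passed limma's adjusted threshold and 1, Sox9 at 0.41, had an unadjusted p under 0.05; their part in the results was not tested. By contrast the 10 immediate early factors summed to 296 to 381 in KO mice and to 345 to 2378 in WT mice.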

How the data were processed

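The authors deposited 1 table of log2 signals, with 41345 probe sets and 1 column for each of 6 mice. The labels' protocols give Trizol RNA and biotin-labelled cRNA for an Affymetrix whole-transcript array; how signals were summarised and normalized is not given in the sources here. The deposited values were taken as log2 because array maxima reach 12.1 to 12.2, above the natural log of a full 16-bit reading, 11.1. Symbols came from the platform annotation and were updated through Entrez numbers; 23521 probe sets had 1 symbol, 1814 several and 16010 none, and only the first were used. The upper 50% of genes by mean signal, at or above 2.99, were tested with limma (version 3.58.1, R 4.3.3) by lmFit and eBayes, two-sided and without covariates, 3 KO against 3 WT. P-values were adjusted by Benjamini-Hochberg over all 11090 genes, and the fit was tested on simulated data. Differences are KO minus WT; the median standard error was 0.11, and the number of arrays limits the precision. An exact permutation test, two-sided, was run for single genes. The 10 genes and the gene lists were chosen with earlier results of these data known, so no p-value is given for them as a group.

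Named genes are the 10, Gpr146, the 3 of smallest p in each list with no gene past the threshold, up to 2 markers of highest mean per cell type, and the 6 genes of smallest distance from the mean profile. Ifrd1 was added because Mir1938 lies inside it. Listed genes that passed without WT mouse 3 were named by that result, after their values were seen. Others are said to be named after their values were seen. Listed genes with no single-symbol probe set were not analysed here. Alternatives were quantile normalization, median centring of arrays, 2 other filters, probe sets averaged per gene, array weights, trend with robust options, a pseudocount of 16 on the linear scale, the replicate number as a block and each mouse left out. The labels number the mice of each genotype 1 to 3 without saying that a number is shared; each mouse is a separate animal.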

Additional observations from a re-analysis of the deposited data

How the results depend on the processing

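All 10 genes kept a negative difference under every alternative that tested them; the upper 25% of signal left out Fos, Fosb, Egr2 and Egr3. With each mouse left out, the number of the 10 past the adjusted threshold ran from 0 to 9, and it was 0 under the other alternatives that kept all 6 mice. Without WT mouse 3 and with no filter on signal, added after seeing the data, it was 9, and the share of all genes passing there was not counted. The number at an unadjusted p under 0.05 ran from 1 to 10 with a mouse left out, was 6 of the 6 tested in the upper 25% of signal and 2 with trend and robust options. The median difference ran from -2.58 to -1.33 with a mouse left out and from -1.85 to -1.41 otherwise. Over all genes 4 passed, 3 higher and 1 lower in KO. With a mouse left out the count ran from 1 to 51, with 1 to 11 higher and 0 to 40 lower. It was 0, with 0 higher and 0 lower, in the upper 25% of signal, and 1, with 1 higher and 0 lower, with the pseudocount of 16. Median centring gave 2 lower and trend with robust options 3 lower. Among the other immediate early genes, an alternative chosen after seeing the data left out each mouse: from 0 to 8 of the 33 passed, and the number at an unadjusted p under 0.05 ran from 6 to 18, with 6 to 17 lower. With the replicate number as a block 1 gene passed, 1 higher and 0 lower, and 0 of the 10 did (lowest adjusted p = 0.228). Deviations of same-numbered KO and WT mice correlated at 0.055, -0.187 and 0.147, and not every mouse correlated best with its own number. Deviations within a genotype sum to 0 for each gene, so these correlations depend on one another and cannot decide whether the mice were paired. Causes of these changes were not tested, beyond the smaller number of mice or genes that an alternative leaves. Signals near 3, as for Fosb, Egr2, Egr3 and the low Fos values, lie close to array background, which limits their differences.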

Other observations

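The levels of 6 other inducible genes varied across the mice in several ways; they were named after their values were seen. In Dusp1, Klf10, Cebpb and Pim1 WT mice 1 and 2 did not both lie above the other 4 mice. Dusp1, a phosphatase that turns off MAP kinases, was at 8.04, 7.43 and 7.91 in KO mice 1 to 3 and 8.66, 7.87 and 7.01 in WT mice 1 to 3, a difference of -0.05 with the genotypes overlapping throughout. Klf10, a zinc-finger factor induced by TGF-beta, was at 6.32, 5.99 and 6.62 in KO mice and 6.85, 6.09 and 5.12 in WT mice, where WT mouse 3 was the lowest of all 6. Sik1, a kinase induced by cyclic AMP, had WT mice 1 and 2 above the other 4 mice and WT mouse 3 below every KO mouse, at 6.56, 6.66 and 6.71 in KO mice and 7.22, 7.33 and 5.98 in WT mice. Myc also had WT mice 1 and 2 above the other 4, at 4.30, 4.05 and 3.62 in KO mice and 4.87, 7.07 and 4.31 in WT mice. The genotypes did not overlap in Myc, with KO mouse 1 just under WT mouse 3 (limma adjusted p = 0.522). Cebpb, a liver leucine zipper factor, went the other way in WT, at 6.53, 6.65 and 6.82 in KO mice and 6.45, 6.62 and 7.17 in WT mice, with WT mouse 3 the highest. Pim1, a kinase induced by STAT signalling, was at 4.69, 5.17 and 5.36 in KO mice and 4.89, 4.51 and 4.43 in WT mice, a difference of 0.46. None of these 6 passed limma's adjusted threshold with all 6 mice (adjusted p from 0.509 to 0.979).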
